A study of Homo sapiens with 9 samples.

Results

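IL24, IL20 and IL19 encode 3 secreted ligands of the IL-20 cytokine subfamily, a branch of the IL-10 family. Together with the receptor chains IL20RA, IL20RB, IL22RA1 and IL10RB they were followed in MG-63 cells on 3 implant surfaces. The members were listed by name, and 7 of the 8 listed genes were taken from the 36385 gene rows of the deposited table, 3 ligands and 4 receptor chains. IL10 was not analysed here. The set was chosen by the measured rise of IL24 on the HA coating over bare alloy. For all members that contrast, and that of the HA coating against TiB2, are therefore given as descriptions with no test.

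MG-63 is an established line from a human bone tumour, widely grown as a stand-in for osteoblasts, and the labels call it epithelial-like. The TiB2 group was grown on Ti6Al4V, a titanium implant alloy, with TiB2. The HA coating group was grown on boronized Ti6Al4V with HA, and the bare alloy group on Ti6Al4V. All 3 groups had 3 libraries each and shared day 7 of osteogenic induction, in medium with 100 nM dexamethasone, ascorbic acid at 50 µg/mL and beta-glycerophosphate at 10 mM. The labels place all libraries in 1 batch and say that the submitters' final analysis did not use TiB2. Whether a group's libraries are separate cultures is not stated. The spread behind each p-value is thus that between these libraries and may be technical.

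Library totals were 62951461 to 63413815 counts on TiB2, 60528871 to 72542556 on the HA coating and 58464306 to 63122541 on bare alloy. All 9 osteoblastic and mesenchymal markers were detected on every surface, with summed levels of 9847 to 10315 CPM on TiB2, 6312 to 10613 CPM on the HA coating and 18544 to 20239 CPM on bare alloy. These markers did not move together. COL1A1, COL1A2, COL3A1, SPARC, VIM and PDGFRB were lower in every treated library than in every bare alloy library. ALPL and THY1 were higher in every treated library, and RUNX2 was higher on TiB2 and overlapped on the HA coating. CPM are counts relative to library size after TMM scaling. Libraries of a group differed in traces of T cell genes: 8 markers summed to 7.12 to 8.25 CPM on TiB2, 0.160 to 0.421 CPM on the HA coating and 0.182 to 5.88 CPM on bare alloy, where replicate 1 was the lowest. In bulk RNA, more cells expressing a gene and more RNA per cell cannot be told apart.

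IL-20 subfamily ligands signal through pairs of class II cytokine receptor chains. IL20RA with IL20RB binds IL-19, IL-20 and IL-24, and IL22RA1 with IL20RB binds IL-20 and IL-24. IL10RB is the shared second chain of the IL-10, IL-22 and interferon lambda receptors. The chains have no kinase of their own: JAK1 and TYK2 bound to them phosphorylate STAT3, which induces SOCS3, a feedback inhibitor. The ligands are best known in skin, where keratinocytes respond to them, and IL24 was first described as a gene of differentiating melanoma cells that promotes apoptosis when overexpressed.

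The 3 ligand genes lie next to each other on the forward strand of chromosome 1, in the IL10 cluster. In the GRCh38 coordinates of the deposited table IL19 spans 206770764 to 206842979, IL20 206865623 to 206869223 and IL24 206897443 to 206904139. GENCODE release 29 starts IL19 28106 bases further downstream. Because the 3 genes were read out together, the 250 bases before the RefSeq start nearest to each gene's start in the table (GRCh38.p14, forward strand) are shown. They run over chr1:206897193-206897442 for IL24, chr1:206865373-206865622 for IL20 and chr1:206770523-206770772 for IL19. Capitals mark motif matches.
IL24: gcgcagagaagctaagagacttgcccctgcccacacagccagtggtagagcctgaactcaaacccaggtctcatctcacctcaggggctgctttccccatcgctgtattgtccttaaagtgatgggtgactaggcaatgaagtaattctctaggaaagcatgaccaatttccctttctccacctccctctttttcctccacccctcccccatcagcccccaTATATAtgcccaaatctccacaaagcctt
IL20: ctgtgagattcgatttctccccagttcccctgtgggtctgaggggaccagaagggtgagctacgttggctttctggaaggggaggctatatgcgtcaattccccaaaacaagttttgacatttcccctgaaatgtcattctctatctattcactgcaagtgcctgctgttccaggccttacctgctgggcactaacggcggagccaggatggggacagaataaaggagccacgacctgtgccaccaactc
IL19: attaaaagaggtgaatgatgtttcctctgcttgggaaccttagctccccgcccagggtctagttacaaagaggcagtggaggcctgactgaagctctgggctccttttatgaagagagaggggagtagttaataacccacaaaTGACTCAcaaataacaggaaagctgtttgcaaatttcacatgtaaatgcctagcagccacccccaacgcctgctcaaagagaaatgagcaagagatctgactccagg
Both strands were searched for an AP-1 motif (TGANTCA), a C/EBP motif (TTGCNNAA), a STAT motif (TTCNNNGAA), an NF-kB motif and a TATA motif (TATANA). The IL24 window held 1 match, the TATA motif TATATA at 29 to 24 bases before the start, and 17.7% of 35116 RefSeq windows of the same length hold that motif. The IL19 window held 1 match, the AP-1 motif TGACTCA at 107 to 101 bases before the start, which 6.57% of windows hold. The IL20 window held no match to any of the 5. The C/EBP, STAT and NF-kB motifs, found in 9.05%, 6.57% and 9.96% of windows, were in none of the 3 windows. RefSeq gave 1 start for IL24 and 2 each for IL20 and IL19, and only the start nearest to the table's was searched. The IL19 window lies within the IL10 gene of GENCODE release 29, which spans 206767602 to 206772494 on the reverse strand. A match is a string of letters and not a measured site.

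IL24 was high on both treated surfaces and low on bare alloy. It had 96.3, 55.6 and 78.6 CPM on TiB2, 75.3, 84.7 and 122 CPM on the HA coating, and 0.638, 0.641 and 0.658 CPM on bare alloy. Those levels rest on 6100, 3596 and 5051 counts on TiB2, 4719, 5440 and 8046 counts on the HA coating, and 35, 41 and 40 counts on bare alloy. Neither treated group overlapped bare alloy, and the treated groups overlapped each other. On TiB2, IL24 averaged 76.8 ± 20.4 CPM, against 0.646 ± 0.0111 CPM on bare alloy (SD, n = 3 each). It rose 118-fold on TiB2 (log2 fold change 6.89 ± 0.23 SE, adjusted p = 3.09e-07 by edgeR's quasi-likelihood test). The fold is over the bare alloy libraries, which the contrast with the HA coating shares. On the HA coating IL24 averaged 93.9 ± 24.6 CPM, a log2 difference of 7.17 ± 0.26 SE or 144-fold above bare alloy. Between the HA coating and TiB2 the log2 difference was 0.28 ± 0.24 SE.

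IL20 and IL19 had counts only on the treated surfaces. IL20 had 103, 70 and 89 counts on TiB2, 40, 90 and 77 counts on the HA coating and 0 counts in all 3 bare alloy libraries. Its mean was 1.36 ± 0.272 CPM on TiB2 and 1.07 ± 0.391 CPM on the HA coating (SD, n = 3 each). Set against 3 counts per bare alloy library, taken as an approximate upper limit for a count of 0, mean IL20 was 27.1-fold higher on TiB2 and 21.2-fold higher on the HA coating. IL19 had 79, 46 and 46 counts on TiB2, 8, 60 and 54 counts on the HA coating and again 0 in every bare alloy library. Its mean was 0.891 ± 0.308 CPM on TiB2 and 0.626 ± 0.436 CPM on the HA coating (SD, n = 3 each). Against the same limit its mean was 17.7-fold higher on TiB2 than on bare alloy and 12.4-fold higher on the HA coating. These folds allow only for counting error on bare alloy, and no p is given because both genes could be tested only through the libraries in which they were high.

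Within a surface the 3 ligands tended to be high or low in the same library. TiB2 replicate 1 was the highest and replicate 2 the lowest TiB2 library for IL24 and IL20, at 1.63 and 1.08 CPM for IL20. Replicate 1 also led for IL19, at 1.25 CPM, while the other TiB2 libraries had 46 counts each. HA coating replicate 1 was the lowest HA coating library for all 3, with 0.638 CPM of IL20 and 0.128 CPM of IL19. Replicate 3 led the HA coating libraries for IL24 and replicate 2 led them for IL20 and IL19. The log2 difference between the HA coating and TiB2 was -0.36 ± 0.38 SE for IL20 and -0.51 ± 0.63 SE for IL19, with overlapping groups in both genes. IL19 did not pass edgeR's filter on low counts in the HA coating against bare alloy.

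**Figure D1:**
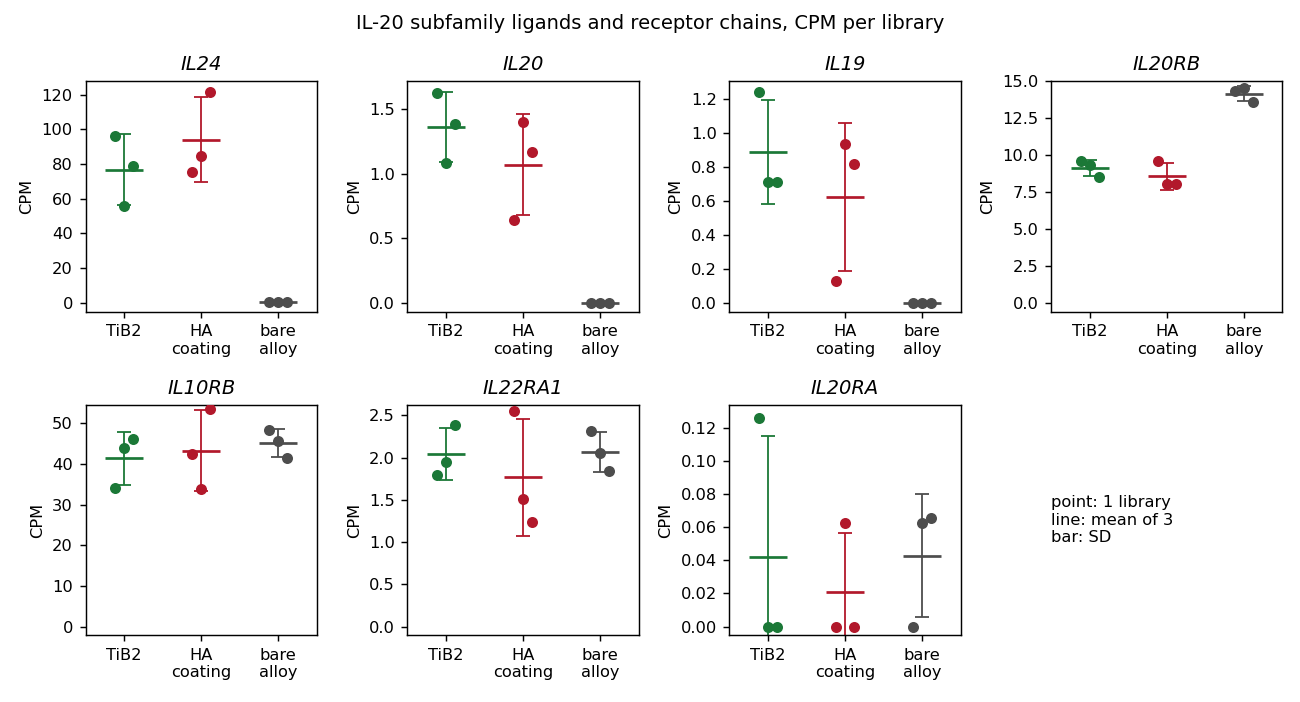
CPM of the 3 ligands and 4 receptor chains (y axis, scaled for each gene) on TiB2, the HA coating and bare alloy (x axis). Points are libraries, horizontal lines means of 3 and vertical bars SD, cut at the axis for IL20RA. The ligands sit near or at 0 on bare alloy, IL20RB is lower on both treated surfaces, and the other receptor chains overlap between surfaces.

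Of the receptor chains, IL20RB was the one whose groups separated, and it went in the opposite direction to the ligands. IL20RB is the chain common to both receptor pairs of these ligands (chromosome 3, 136946230 to 137011085, forward strand). It had 9.56, 9.30 and 8.53 CPM on TiB2, 9.60, 8.02 and 8.05 CPM on the HA coating and 14.3, 14.5 and 13.6 CPM on bare alloy. Every treated library lay below every bare alloy library. Groups did not overlap for 42.1% of all genes on TiB2 and 34.5% on the HA coating against bare alloy. It fell 1.55-fold on TiB2 (log2 fold change -0.63 ± 0.11 SE, adjusted p = 0.00343, edgeR). On the HA coating it was 1.66-fold lower than on bare alloy, a log2 difference of -0.73 ± 0.18 SE. The HA coating and TiB2 differed by -0.10 ± 0.19 SE on the log2 scale. In the table's coordinates the IL20RB row overlaps that of NCK1, an adaptor gene on the same strand, by 5377 bases, and that of the antisense gene IL20RB-AS1, which had 0 to 11 counts. Strand use in counting is not given in the sources used here.

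IL22RA1, the partner of IL20RB for IL-20 and IL-24 (chromosome 1, 24119771 to 24143140, reverse strand), had 1.80, 1.95 and 2.38 CPM on TiB2, 2.55, 1.51 and 1.24 CPM on the HA coating and 2.31, 2.05 and 1.84 CPM on bare alloy. All 3 groups overlapped. The log2 fold change was -0.02 ± 0.22 SE on TiB2 (adjusted p = 0.963, edgeR) and -0.23 ± 0.33 SE on the HA coating. IL20RA, the other partner (chromosome 6, 136999971 to 137044965, reverse strand), was at the detection limit. Its counts were 8, 0 and 0 on TiB2, 0, 4 and 0 on the HA coating, and 0, 4 and 4 on bare alloy. It passed the filter in no comparison, and a difference between surfaces was not detectable at this depth.

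IL10RB (chromosome 21, 33266367 to 33311420, forward strand) had 34.1, 43.9 and 46.2 CPM on TiB2, 42.6, 33.8 and 53.6 CPM on the HA coating and 48.3, 45.7 and 41.5 CPM on bare alloy. The log2 fold change was -0.13 ± 0.12 SE on TiB2 (adjusted p = 0.503, edgeR) and -0.07 ± 0.19 SE on the HA coating. Its level is uncertain, because another row on the same strand, ENSG00000249624, overlaps it over 30794 bases and had between 4 and 1299 counts per library. With both rows summed, the level was 46.3 to 54.6 CPM on TiB2, 40.6 to 53.7 CPM on the HA coating and 48.2 to 53.9 CPM on bare alloy, again overlapping.

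Of the 7 members with a row, 6 passed the filter in TiB2 against bare alloy, IL20 and IL19 through the TiB2 libraries alone. Of the other 4, IL24 and IL20RB passed the threshold of 0.05 and IL22RA1 and IL10RB did not. Over all genes tested, 25.1% passed in that comparison, 12.9% higher and 12.2% lower. In the HA coating against bare alloy, whose result chose IL24, 5 members passed the filter and 9.89% of all genes passed the threshold, 5.02% higher and 4.88% lower. In the HA coating against TiB2, 6 members passed the filter and 0.632% of all genes passed the threshold, 0.179% higher and 0.453% lower. Groups that do not overlap were found for 42.1% of genes on TiB2 against bare alloy, 34.5% on the HA coating against bare alloy and 18.1% on the HA coating against TiB2.

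Per length, IL24 was the most abundant member on both treated surfaces and ranked below 3 receptor chains on bare alloy. The deposited FPKM values, which divide by transcript length, averaged 37.6 ± 9.56 for IL24 on TiB2, 44.4 ± 8.01 on the HA coating and 0.301 ± 0.0232 on bare alloy (SD, n = 3 each). Among all rows above 0, ranked by mean FPKM, 2.94% stood above IL24 on TiB2, 2.58% on the HA coating and 49.9% on bare alloy. On TiB2 and on the HA coating the order of mean FPKM was IL24, IL10RB, IL20RB, IL20, IL22RA1, IL19 and IL20RA. IL20 and IL22RA1 overlapped there and no other neighbours in the order did. On bare alloy the order was IL20RB and IL10RB, which overlapped, then IL22RA1, IL24 and IL20RA, with IL20 and IL19 at 0.

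IL24 exceeded its sister ligands by a wide margin on that scale. The ratio of IL24 to IL20 in FPKM was 38.9, 34.2 and 37.9 in the TiB2 libraries and 79.7, 40.2 and 68.6 in the HA coating libraries. The ranges did not overlap, and the ratio was not tested. The ratio of IL20 to IL19 was 6.30, 7.40 and 9.34 on TiB2 and 24.5, 7.24 and 6.92 on the HA coating. The value of 24.5 comes from HA coating replicate 1, in which IL19 had 8 counts.

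**Figure D2:**
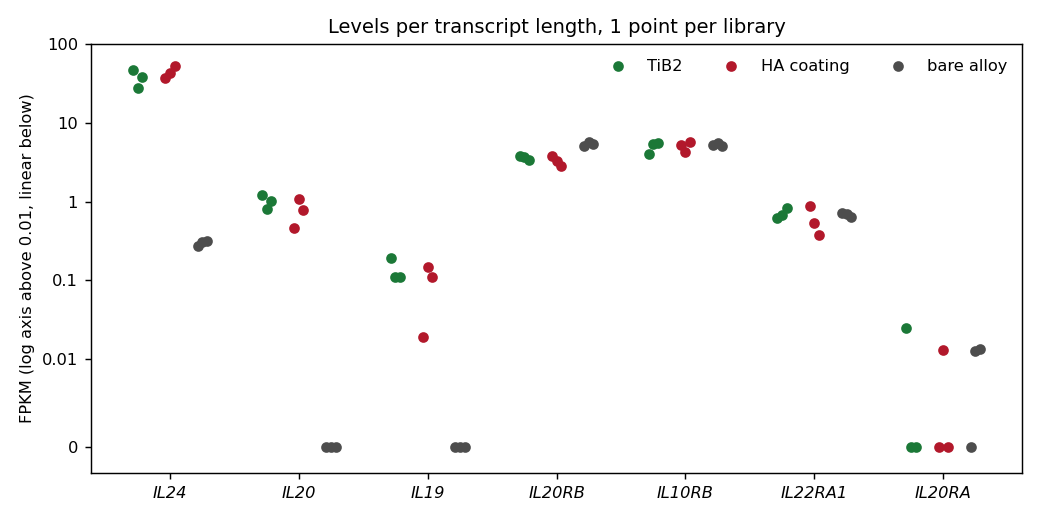
FPKM of each member (y axis, logarithmic above 0.01 and linear below) in each library, with TiB2, the HA coating and bare alloy side by side for each gene (x axis). IL24 lies at 27.5 to 53.0 FPKM on the treated surfaces and 0.275 to 0.320 FPKM on bare alloy, while IL20RB, IL10RB and IL22RA1 stay between 0.377 and 5.75 FPKM on all 3.

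Genes around IL24 on chromosome 1 were examined to see whether the rest of the locus moved with the ligands. Within 300 kb, FCMR, DYRK3, MAPKAPK2, YOD1 and C4BPA rose and C1orf116 fell on TiB2, and FCMR, DYRK3 and YOD1 rose on the HA coating. EIF2D and PFKFB2, also tested, passed on neither surface. Over all genes tested, 25.1% passed on TiB2 and 9.89% on the HA coating against bare alloy. None of these neighbours came near the fold of IL24. FCMR, an Fc receptor gene for IgM known from lymphocytes, had 8.35, 8.71 and 9.76 CPM on TiB2, 9.20, 5.45 and 10.0 CPM on the HA coating and 1.64, 1.00 and 1.66 CPM on bare alloy. It rose by 2.64 ± 0.22 SE on the log2 scale on TiB2 (adjusted p = 4.90e-05, edgeR) and by 2.51 ± 0.32 SE on the HA coating (adjusted p = 0.00287, edgeR). The FCMR row lies on the other strand and overlaps the 3′ end of IL24 by 823 bases in the table, so without strand, reads in that stretch cannot be assigned to either gene. GENCODE release 29 has no gene overlapping IL24. Among lymphocyte markers on the HA coating, CD3D, CD3E, CD3G, CD2 and LCK had 0 counts, while CD4 had 10, 23 and 0, CD8A 0, 4 and 0, TRAC 0, 0 and 12 and the B cell marker CD79A 6, 6 and 10 counts. On TiB2, CD3D had 83, 137 and 102, CD3E 105, 160 and 153, LCK 123, 99 and 175 and CD79A 48, 23 and 29 counts, while TRAC had 0. On bare alloy, CD3D had 0, 57 and 108, CD3E 0, 103 and 91, LCK 0, 118 and 118 and CD79A 15, 26 and 16 counts. The part of these markers in the FCMR difference was not tested.

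DYRK3, a protein kinase gene, rose on both surfaces, by 1.07 ± 0.08 SE on TiB2 and 1.06 ± 0.15 SE on the HA coating (log2; adjusted p = 2.06e-05 and 0.00406, edgeR). MAPKAPK2, which encodes the p38 target kinase that stabilises cytokine mRNAs, rose by 0.54 ± 0.07 SE on TiB2 (log2, adjusted p = 0.000778). On the HA coating its log2 difference was 0.49 ± 0.16 SE (adjusted p = 0.0895, edgeR). C4BPA, a complement regulator gene, rose by 1.47 ± 0.14 SE on TiB2 (log2, adjusted p = 9.51e-05) and differed by 0.87 ± 0.30 SE on the HA coating (adjusted p = 0.0998, edgeR). YOD1, a deubiquitinase gene, rose by 0.73 ± 0.09 SE on TiB2 and 0.84 ± 0.21 SE on the HA coating (log2, adjusted p = 0.000328 and 0.0367, edgeR). C1orf116 fell by 0.80 on the log2 scale on TiB2 (adjusted p = 0.0263, edgeR), with a difference of -0.95 ± 0.29 SE on the HA coating (adjusted p = 0.0703). EIF2D and PFKFB2 did not pass on either surface, with log2 differences of -0.17 and 0.35 on TiB2 and 0.04 and 0.08 on the HA coating. DYRK3-AS1, Y_RNA, FCAMR, C4BPB and C4BPAP1 had at most 13 counts in any library and were not tested. The calls for C1orf116 on TiB2 and YOD1 on the HA coating were lost in 10 of 14 and 8 of 15 other settings.

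**Figure D3:**
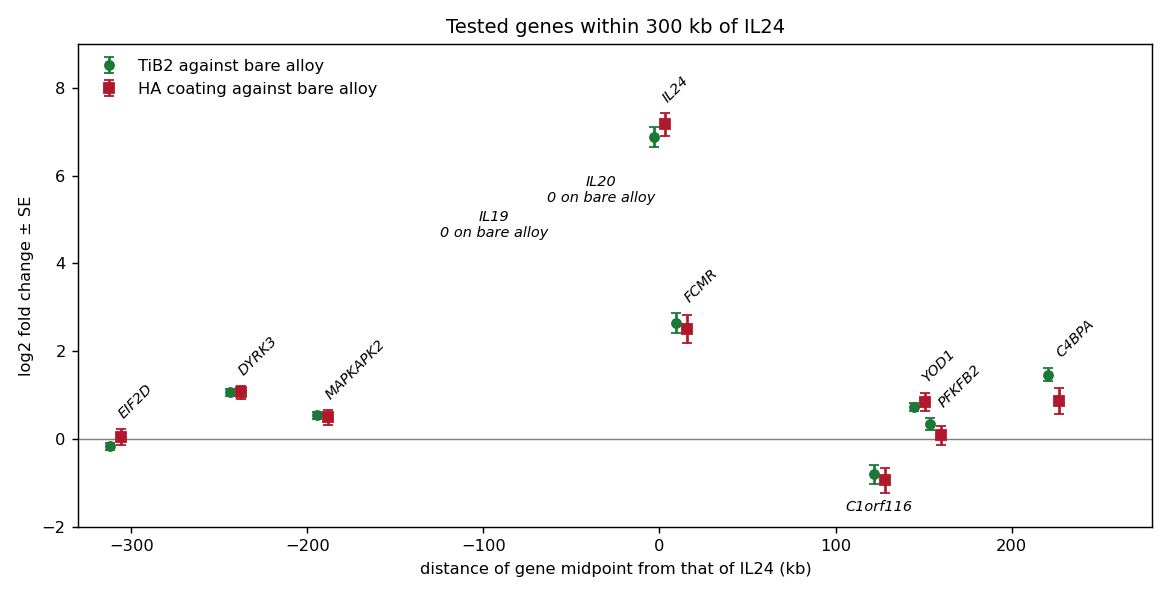
Log2 fold change with SE (y axis) of tested genes within 300 kb of IL24, by the distance of the gene's midpoint from that of IL24 in kb (x axis), for TiB2 (green circles) and the HA coating (red squares) against bare alloy. IL24 lies near 7 and FCMR near 2.5, with the other tested genes at or below 1.47. IL19 and IL20 are named at their positions without a value because bare alloy had 0 counts.

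The genes whose profile over the 9 libraries lay closest to that of IL24 were mostly inflammatory chemokine and cytokine genes. Likeness was the root mean square difference of log2(CPM + 0.1), each gene centred on its own mean, among 11903 genes with a mean FPKM of at least 1 in some group. The nearest was CXCL8, a neutrophil chemokine gene, at 0.652, followed by the related chemokine genes CXCL3 at 1.01, CXCL1 at 1.09 and CXCL6 at 1.11. IL1B at 1.19 and IL6 at 1.40, both inflammatory cytokine genes, the ribosomal protein pseudogene RPLP0P2 at 1.29 and the long noncoding RNA LINC01163 at 1.41 made up the 8. The median over all candidates was 3.20 and the ninth gene stood at 1.54. CXCL8 averaged 297 ± 136 CPM on TiB2, 252 ± 96.6 CPM on the HA coating and 5.19 ± 0.567 CPM on bare alloy (SD, n = 3 each). IL24 differed from bare alloy by 6.65 on TiB2 and 6.95 on the HA coating on this log2 scale, against 5.68 and 5.51 for CXCL8. The genes share libraries and were picked for their likeness, so no test is given. CXCL1 and CXCL3 are close copies of each other and RPLP0P2 is a copy of a ribosomal protein gene, which makes their counts uncertain.

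**Figure D4:**
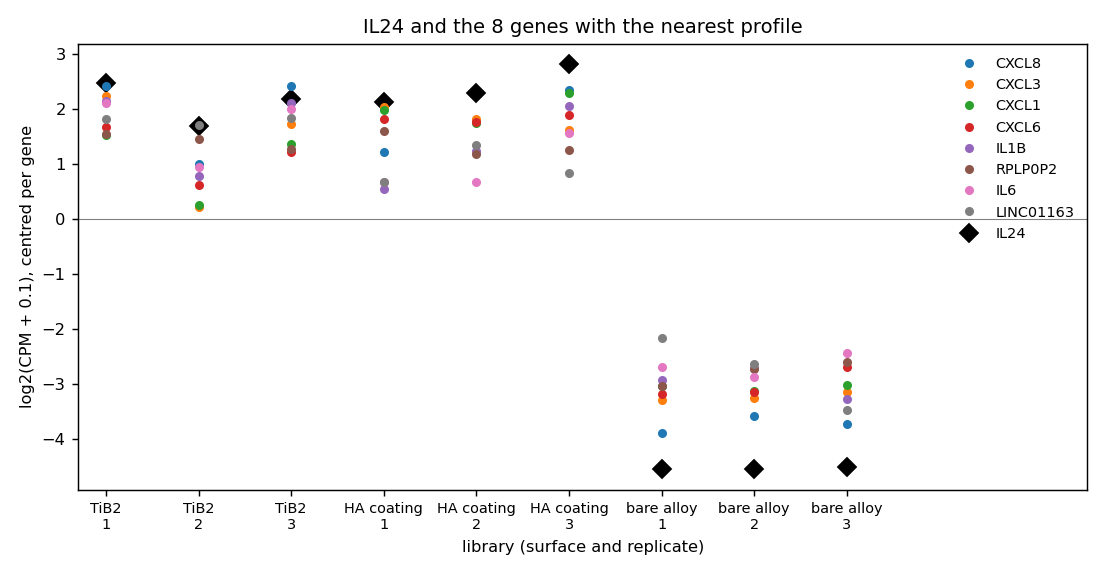
Log2(CPM + 0.1) centred per gene (y axis) in each library (x axis) for IL24 (black diamonds) and the 8 genes with the nearest profile (coloured points). All 9 genes are above their own mean in all TiB2 and HA coating libraries and below it on bare alloy.

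Among the JAK-STAT genes that act downstream of the receptors, SOCS2, SOCS3 and STAT4 rose on both treated surfaces and STAT6 fell on both. STAT3, JAK1 and TYK2 rose on neither. Of 19 components and feedback genes, 6 rose and 3 fell on TiB2, or 47.4% beside 25.1% of all genes tested, with a median log2 difference of 0.22 against 0.00 over all genes. On the HA coating 3 rose and 2 fell, or 26.3% beside 9.89% of all genes, with a median of -0.07 against 0.02. SOCS3, the feedback inhibitor that STAT3 induces, had 52.9, 53.7 and 42.5 CPM on TiB2, 53.2, 42.9 and 81.5 CPM on the HA coating and 21.4, 22.4 and 27.1 CPM on bare alloy. Every treated library was above every bare alloy library. SOCS3 rose by 1.07 ± 0.12 SE on TiB2 (adjusted p = 0.000283) and 1.31 ± 0.24 SE on the HA coating (adjusted p = 0.0114; log2, edgeR). STAT4, a STAT of cytokine signalling in lymphocytes, rose 3.15-fold on TiB2 (adjusted p = 0.000548) and 3.70-fold on the HA coating (adjusted p = 0.0054, edgeR).

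STAT3 itself, the main STAT of these receptors, did not pass on either surface. Its level was 287 to 315 CPM on TiB2, 217 to 306 CPM on the HA coating and 300 to 315 CPM on bare alloy. The log2 difference was -0.01 ± 0.07 SE on TiB2 (adjusted p = 0.929) and -0.27 ± 0.18 SE on the HA coating (adjusted p = 0.362, edgeR). JAK1 had a log2 difference of -0.14 on TiB2 (adjusted p = 0.13) and fell by 0.61 on the HA coating (adjusted p = 0.0437, edgeR). TYK2 did not pass, with log2 differences of 0.22 on TiB2 (adjusted p = 0.114) and -0.07 on the HA coating (adjusted p = 0.858, edgeR). SOCS1, another feedback inhibitor, had 5.49, 4.76 and 4.47 CPM on TiB2, 1.61, 0.452 and 1.97 CPM on the HA coating and 0.656, 1.67 and 1.88 CPM on bare alloy. It rose 3.48-fold on TiB2 (adjusted p = 0.00435, edgeR), and the HA coating overlapped bare alloy.

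STAT5A rose by 0.88 ± 0.10 SE on TiB2 (log2, adjusted p = 0.000304, edgeR) and differed by 0.26 ± 0.18 SE on the HA coating (adjusted p = 0.39). SOCS2 rose 1.59-fold on TiB2 (adjusted p = 0.000242) and 1.99-fold on the HA coating (adjusted p = 0.015, edgeR). STAT6 fell 1.44-fold on TiB2 (adjusted p = 0.00148) and 1.62-fold on the HA coating (adjusted p = 0.0334, edgeR). The calls on the HA coating leaned on single libraries. Without bare alloy replicate 1, which was the low library of that surface for the T cell markers, 1 of the 19 genes passed on the HA coating. SOCS3, SOCS2, JAK1 and STAT6 all lost their calls. Over all genes, 1990 calls there became 857 without that library, and 598 and 601 without bare alloy replicate 2 or 3. Without HA coating replicate 1, 7 of the 19 passed, and 4185 of all genes. On the HA coating SOCS3 lost its call in 3 of 15 other settings, SOCS2 in 4, JAK1 and STAT6 in 9 each, and STAT4 in 2 of 14. Between the HA coating and TiB2, 0 of 18 genes passed with edgeR, beside 0.632% of all genes. Of the 18, 4 had an unadjusted p below 0.05, 1 passed with DESeq2 and 0 with limma.

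**Figure D5:**
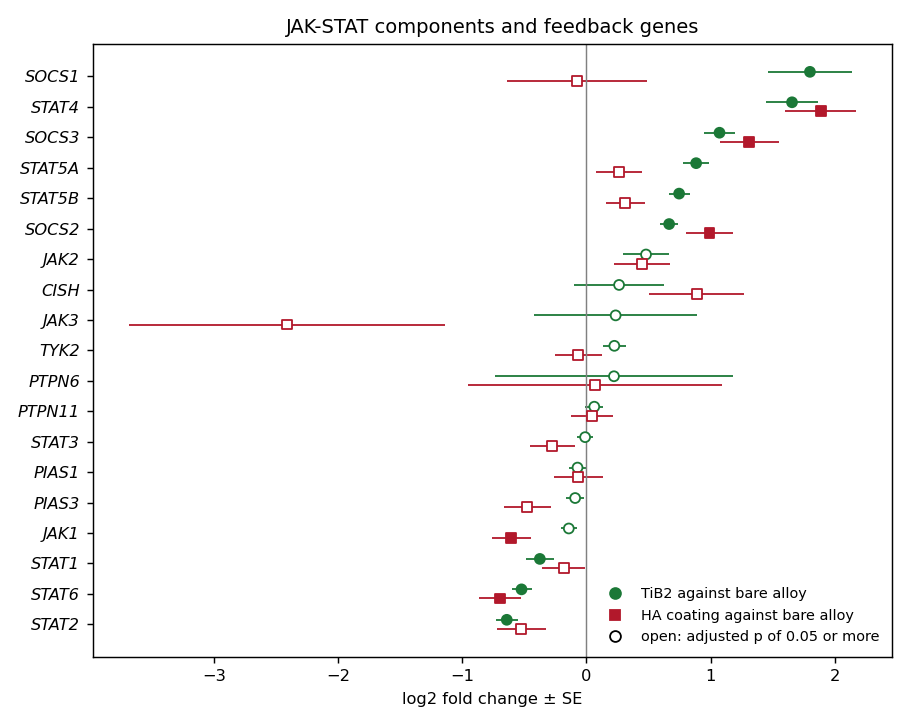
Log2 fold change with SE (x axis) of 19 JAK-STAT genes (y axis) on TiB2 (green circles) and the HA coating (red squares) against bare alloy, ordered by the TiB2 value, with open symbols for an adjusted p of 0.05 or more. SOCS2, SOCS3 and STAT4 are filled and to the right of 0 on both surfaces, STAT6 is filled and to the left on both, and STAT3 is open on both.

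Of 21 known STAT3 target genes tested on TiB2, 7 rose and 1 fell, or 38.1% beside 25.1% of all genes, with a median log2 difference of 0.27. Of 20 tested on the HA coating 2 rose, with a median of 0.03, a share near the 9.89% of all genes called there. On TiB2, LBP, an acute phase gene, rose by 1.52 ± 0.32 SE (adjusted p = 0.00773), BCL6, a transcriptional repressor gene, by 0.92 ± 0.12 SE (adjusted p = 0.000523) and BIRC5, an inhibitor of apoptosis, by 0.81 ± 0.14 SE (adjusted p = 0.00232; log2, edgeR). LBP lost its call in 1 of 14 settings. SOCS3 and BIRC5 were the pair that rose on the HA coating, BIRC5 by 1.18 ± 0.17 SE (log2, adjusted p = 0.00452, edgeR).

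The transcription factor genes CEBPB and CEBPD, also STAT3 targets, differed between the treated surfaces. CEBPB had 6.67, 4.03 and 11.4 CPM on the HA coating, against 59.8, 43.6 and 41.3 CPM on TiB2, and fell by 2.72 on the log2 scale (adjusted p = 0.0072, edgeR). On bare alloy it had 4.94 CPM in replicate 1 and 25.5 and 37.4 CPM in the others, so that replicate 1 sat with the HA coating libraries. CEBPD had 32.0, 18.1 and 23.0 CPM on the HA coating, against 79.8, 71.9 and 74.2 CPM on TiB2, and fell by 1.64 (log2, adjusted p = 0.00983, edgeR). Bare alloy had 24.3 CPM of CEBPD in replicate 1 and 58.5 and 81.2 CPM in the others. The T cell markers divided the libraries the same way, with 0 counts of CD3D, CD3E and LCK on the HA coating and in bare alloy replicate 1. Their part in the CEBPB and CEBPD difference was not tested. The calls were lost in 4 of 15 settings for CEBPB and 6 of 15 for CEBPD.

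Genes tied to the growth arrest, endoplasmic reticulum stress and apoptosis reported for IL24 in other cells changed in both directions. Of 22 tested, 6 rose and 2 fell on TiB2 (median log2 difference 0.07), or 36.4% beside 25.1% of all genes. The HA coating had 2 that rose and 1 that fell (median 0.32), or 13.6% beside 9.89%. GADD45G, a growth arrest gene, had 0.694, 0.788 and 0.872 CPM on TiB2, 1.05, 0.841 and 0.999 CPM on the HA coating and 0.255, 0.110 and 0.198 CPM on bare alloy. It was 4.17-fold higher on TiB2 and 5.10-fold higher on the HA coating than on bare alloy. With 14, 7 and 12 counts on bare alloy it passed the filter only through the treated libraries, so no p is given. It is among the genes counted above as risen on both surfaces. CLU, a secreted chaperone that also limits apoptosis, averaged 297 CPM on TiB2, 180 CPM on the HA coating and 814 CPM on bare alloy. It fell 2.74-fold on TiB2 (adjusted p = 2.33e-05) and 4.56-fold on the HA coating (adjusted p = 0.00151, edgeR), in all settings tried.

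EIF2AK2, the kinase PKR reported to bind IL24 protein, fell by 0.55 on the log2 scale on TiB2 (adjusted p = 0.00125, edgeR). BAK1, a pore-forming gene of apoptosis, rose by 0.52 ± 0.13 SE there (adjusted p = 0.0181, edgeR). FAS, a death receptor gene, rose by 0.46 ± 0.12 SE on TiB2 and 0.98 ± 0.17 SE on the HA coating (log2, adjusted p = 0.0182 and 0.00897, edgeR). On the HA coating GADD45G dropped out of the risen genes without HA coating replicate 2 and without bare alloy replicate 2 or 3. BAK1 lost its call on TiB2 in 7 of 15 settings, and FAS lost its call on the HA coating in 4 of 14.

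Of 22 genes for AP-1, C/EBP, NF-kB, p38 and RNA stability factors tied to IL24 induction, 8 rose and 1 fell on TiB2 (median log2 difference 0.47), or 40.9% beside 25.1% of all genes. There were 2 that rose and 1 that fell on the HA coating (median 0.08), or 13.6% beside 9.89%. ATF3, a stress-induced factor, had 4.83, 8.33 and 8.48 CPM on TiB2, 6.08, 4.91 and 7.41 CPM on the HA coating and 2.93, 2.96 and 2.22 CPM on bare alloy. It rose by 1.41 ± 0.25 SE on TiB2 (adjusted p = 0.00285) and 1.17 ± 0.24 SE on the HA coating (adjusted p = 0.02; log2, edgeR). JUN, an AP-1 subunit, fell by 0.61 on TiB2 (adjusted p = 0.00211) and 1.36 on the HA coating (adjusted p = 0.00723; log2, edgeR). FOS and JUNB, other AP-1 subunits, rose by 1.02 ± 0.30 SE and 0.61 ± 0.17 SE on TiB2 (log2, adjusted p = 0.0335 and 0.0272, edgeR). MAP2K6, a kinase that activates p38, rose by 0.58 ± 0.08 SE on TiB2 and 0.90 ± 0.22 SE on the HA coating (log2, adjusted p = 0.000967 and 0.0359, edgeR). ATF3 on the HA coating lost its call with any 1 bare alloy library left out. JUN lost its call in 3 of 15 settings on TiB2 and 2 on the HA coating. FOS and JUNB on TiB2 and MAP2K6 on the HA coating lost theirs in 9 of 14, 8 of 15 and 8 of 15.

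Epidermal response genes, which IL-20 cytokines induce in keratinocytes, were mostly too low to test. Of 18 listed, 13 had a row and 6 were tested on TiB2 and 5 on the HA coating. PI3, which encodes the protease inhibitor elafin, had 80, 56 and 182 counts on TiB2, 38, 23 and 144 counts on the HA coating and 0, 0 and 4 counts on bare alloy. IL36G, an IL-1 family cytokine gene, had 25, 37 and 44 counts on TiB2 and 21, 38 and 22 on the HA coating, against 5, 4 and 0 on bare alloy. S100A9, a calprotectin subunit gene, had 27, 28 and 8 counts on TiB2 and 45, 30 and 220 on the HA coating, against 4, 0 and 0 on bare alloy. These treated libraries all lay above those of bare alloy. Groups did not overlap for 42.1% of all genes on TiB2 and 34.5% on the HA coating. PI3, IL36G and S100A9 passed the filter only through the libraries in which they were high, so their counts are given with no p. Of the genes tested, 4 on TiB2 and 3 on the HA coating did not pass the threshold. FLG had 14, 0 and 14 counts on TiB2, 14, 15 and 0 on the HA coating and 18, 12 and 38 on bare alloy. KRT1 and KRT6A had 0 counts on the HA coating. The epithelial and keratinocyte markers summed to 220 to 228 CPM on TiB2, 163 to 231 CPM on the HA coating, where KRT5 and KRT14 had 0 counts, and 152 to 188 CPM on bare alloy. Their part in these differences was not tested.

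Outside the listed members, 8 other IL-10 family ligands and class II receptor genes were tested on each surface. On both, IFNAR2 and F3 rose and no other passed, 2 of 8 beside 25.1% of all genes on TiB2, which is the background share, and 9.89% on the HA coating. IFNAR2, a chain of the type I interferon receptor, had 17.5, 18.1 and 26.4 CPM on TiB2, 18.6, 19.3 and 20.05 CPM on the HA coating and 8.98, 11.6 and 9.60 CPM on bare alloy. It rose 2.05-fold on TiB2 (adjusted p = 0.00261) and 1.91-fold on the HA coating (adjusted p = 0.0127, edgeR). F3, tissue factor, which has the fold of these receptors and starts coagulation, rose 1.88-fold on TiB2 (adjusted p = 0.0255) and 3.21-fold on the HA coating (adjusted p = 0.00945, edgeR). F3 lost its call in 8 of 14 settings on TiB2 and 2 on the HA coating, and IFNAR2 in 1 on TiB2 and 4 on the HA coating. The median log2 difference of the 8 was 0.09 on TiB2 and 0.19 on the HA coating. IL26, a ligand gene among them, had 0, 0 and 6 counts on TiB2 and 0, 0 and 8 on the HA coating. On bare alloy IL26 had 10, 15 and 22 counts, the opposite direction to IL24, and it passed on neither surface.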

How the data were processed

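The deposited table gives, per gene and library, the raw count and the FPKM value as the authors made them. The submitters' processing notes list featureCounts 2.0.1, StringTie 2.1.4, HISAT2 2.2.1, cutadapt 2.10, limma and GRCh38 without roles. Multi-mapping treatment is not given in the sources used here, nor is strand use. Sample titles gave groups and replicates. Each comparison used its own 6 libraries in edgeR 4.0.16 (R 4.3.3): filterByExpr, TMM, glmQLFit and glmQLFTest, two-sided, on all genes, with p-values adjusted by Benjamini-Hochberg and called under 0.05. SE is the log2 fold change over the square root of F. Alternatives used DESeq2 1.42.0 and limma 3.58.1, other scalings and filters, a replicate block and leaving out each library. The edgeR step was tested on simulated data. Levels are TMM-scaled CPM over 9 libraries, and 3 counts are worth 0.0454 to 0.0547 CPM. Promoters came from RefSeq (GRCh38.p14), which held 7 of the 7 measured symbols. Named were all members, the 8 genes most like IL24, symbols within 300 kb, up to 4 passing members with the largest change per list and comparison, and SOCS3, STAT3, JAK1 and TYK2. Members and lists were chosen with earlier results of these data known.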

Additional observations from a re-analysis of the deposited data

How the results depend on the processing

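IL24 on TiB2 kept its direction and call in all 15 alternatives, with a log2 fold change of 4.86 to 6.92 over 9 settings and 6.69 to 7.07 with a library left out. IL20RB kept its TiB2 call in all 15 too. On the HA coating IL24 was 5.11 above bare alloy with limma on log2(FPKM + 1) and 6.78 on log2(FPKM + 0.1), where the pseudocount shrinks low levels, and 6.95 to 7.31 with a library left out; against TiB2 that range was 0.05 to 0.46. Counts of genes past the threshold moved more. On TiB2, 5059 became 2859 at a mean FPKM of at least 5, 2873 and 2901 with limma (pseudocounts 1 and 0.1) and 2132 in a fit of all 9 libraries, and 3685 to 4211 with a library left out. For the HA coating against bare alloy, 1990 became 3324 with DESeq2, 1093 with no filter, 1148 at FPKM 5, 554 and 686 with limma and 3518 with all 9, and 598 to 4185 with a library left out, the highest without HA coating replicate 1. For the HA coating against TiB2, 127 became 490, 35, 38, 27, 22 and 67 under the same settings, and 49 to 1224 with a library left out, the highest again without HA coating replicate 1. Of calls there, 28.3% were higher on the HA coating, 41.8% with all 9 and 45.8% without that library. The cause was not tested. Same-numbered libraries deviated from their group means with correlations of -0.146 to 0.119, so the numbers were not taken to pair samples; with the replicate block the counts were 3625, 1357 and 195. Among named genes, 876 gene and setting pairs stayed on the same side of the threshold, called or not, 135 lost a call and 9 gained one. Depth limits IL20RA, IL19 and IL20 on bare alloy.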
